A study of Mus musculus with 10 samples.

Results

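The Sox genes described here are 8 transcription factor genes of glia and neural progenitors, Sox2 and Sox1 of subgroup B1, Sox9 and Sox8 of subgroup E, Sox4 and Sox11 of subgroup C, and Sox5 and Sox6 of subgroup D. They were taken as a list of symbols, and all 8 were found among the 21887 protein-coding genes placed on the chromosomes of the data. The study mapped 4 histone H3 modifications by chromatin immunoprecipitation and sequencing (ChIP-seq) in Glast+ cells, named Müller glia in the titles, isolated from C57BL/6 mouse retinas of postnatal day 28, with every mark done in an Exp1 and an Exp2, 2 experiments in all. All libraries come from the same kind of cell and age, with no treated or mutant group, so the Sox genes are set against all protein-coding genes. Glast, the glutamate transporter encoded by Slc1a3, is carried by the Müller glia of the retina and by astrocytes. The labels do not say which animals or how many went into each experiment, so the spread between experiments may be technical.

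Sox proteins bind DNA through a domain related to that of the sex-determining factor Sry, and act with partner factors that differ between cell types. Sox2 and Sox1 keep neural progenitors from differentiating, Sox9 and Sox8 act in gliogenesis and in Müller glia, Sox4 and Sox11 act in newly formed neurons including retinal ganglion cells, and Sox5 and Sox6, which lack an activation domain of their own, modulate other Sox factors, as known from cartilage and oligodendrocytes. H3K4me3 lies at active or poised promoters, and H3K4me1 lies around promoters and at enhancers. H3K27me3 is laid down by Polycomb complexes over genes held silent, and its presence together with H3K4me3 on developmental genes is known as bivalency. H3K9me3 marks heterochromatin. The data are islands, stretches in which the authors' caller found reads enriched, so a gene is either inside an island or not, and no level of a mark is known.

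The sequences before the listed starts of the Sox genes are given first, because the marks at these starts differ with the number of CG dinucleotides in them. Each sequence is the 250 bases before a transcription start, read 5′ to 3′ on the strand of the gene, from RefSeq on GRCm38.p6 (the build called mm10 in the labels), with every CG in capitals. Shown are the Sox2 start on the plus strand (chr3:34649745-34649994), which held H3K4me3 and H3K27me3, the Sox1 start on the plus strand (chr8:12395269-12395518), which held H3K27me3 and no H3K4me3, the Sox4 start on the minus strand (chr13:28953700-28953949), which held H3K4me3 and no H3K27me3, and, on the minus strand, the second of 6 listed Sox6 starts (chr7:116031048-116031297), which held H3K4me3 and H3K27me3, and the fourth (chr7:115846141-115846390), which held neither.
Sox2: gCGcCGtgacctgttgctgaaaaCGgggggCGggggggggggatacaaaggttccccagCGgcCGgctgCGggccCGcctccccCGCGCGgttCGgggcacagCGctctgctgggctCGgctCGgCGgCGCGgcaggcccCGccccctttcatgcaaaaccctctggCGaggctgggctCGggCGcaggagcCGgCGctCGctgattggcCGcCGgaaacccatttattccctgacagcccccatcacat
Sox1: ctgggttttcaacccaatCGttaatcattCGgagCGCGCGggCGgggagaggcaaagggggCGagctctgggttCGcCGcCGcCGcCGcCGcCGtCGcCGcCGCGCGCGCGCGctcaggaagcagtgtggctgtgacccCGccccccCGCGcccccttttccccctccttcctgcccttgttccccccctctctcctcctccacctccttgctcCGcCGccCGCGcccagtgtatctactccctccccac
Sox4: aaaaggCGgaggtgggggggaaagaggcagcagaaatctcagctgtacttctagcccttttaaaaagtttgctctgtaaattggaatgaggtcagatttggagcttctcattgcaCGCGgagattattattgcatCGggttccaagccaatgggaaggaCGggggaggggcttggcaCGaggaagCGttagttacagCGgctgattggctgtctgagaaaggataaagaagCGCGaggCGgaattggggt
Sox6 start 2: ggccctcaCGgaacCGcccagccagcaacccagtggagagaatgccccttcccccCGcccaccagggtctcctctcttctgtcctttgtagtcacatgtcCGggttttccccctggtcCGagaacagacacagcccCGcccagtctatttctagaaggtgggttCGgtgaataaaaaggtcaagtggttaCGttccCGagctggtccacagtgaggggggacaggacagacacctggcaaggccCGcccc
Sox6 start 4: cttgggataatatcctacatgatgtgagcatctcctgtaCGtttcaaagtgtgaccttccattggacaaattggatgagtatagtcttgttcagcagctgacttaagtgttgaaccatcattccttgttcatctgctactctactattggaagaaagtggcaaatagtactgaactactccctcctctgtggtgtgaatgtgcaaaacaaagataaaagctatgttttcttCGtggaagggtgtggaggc

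CG was counted in the 250 bases before each of the 12 listed starts of 7 Sox genes, since Sox9 has none in the table. There were 27 before Sox2, 29 before Sox1, 18 before Sox8, 11 before Sox4 and 17 before Sox11, against a median of 6 over the 32851 starts analysed. The single listed start of Sox5, which lies 118.7 kb into the gene from its lower end, had 3. The 6 starts of Sox6 had 9, 10, 2, 2, 2 and 1, in the order of transcription. A start counted as marked when an island touched the 1 kb either side of it in both experiments. H3K4me3 marked the starts of Sox2, Sox8, Sox4 and Sox11 and the first and second starts of Sox6, 6 of the 12, against 45.1% of all starts. H3K4me1 marked 7 of the 12, against 43.8% of all starts, H3K27me3 marked 5, against 19.1%, and H3K9me3 marked 0, against 9.59%. Of the Sox starts with H3K4me3, the lowest CG count was 9, and of those without it, all but Sox1 had 3 or fewer. Over all starts, the median count was 16 where H3K4me3 was present and 3 where it was not, so this split is that of the genome. Sox1 was the exception. Of the 2227 starts with at least its 29 CG, 97.8% held H3K4me3, and 38 starts, 1.71% of them, held H3K27me3 without H3K4me3. The count is of letters in 1 window and says nothing of methylation or binding.

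**Figure D1:**
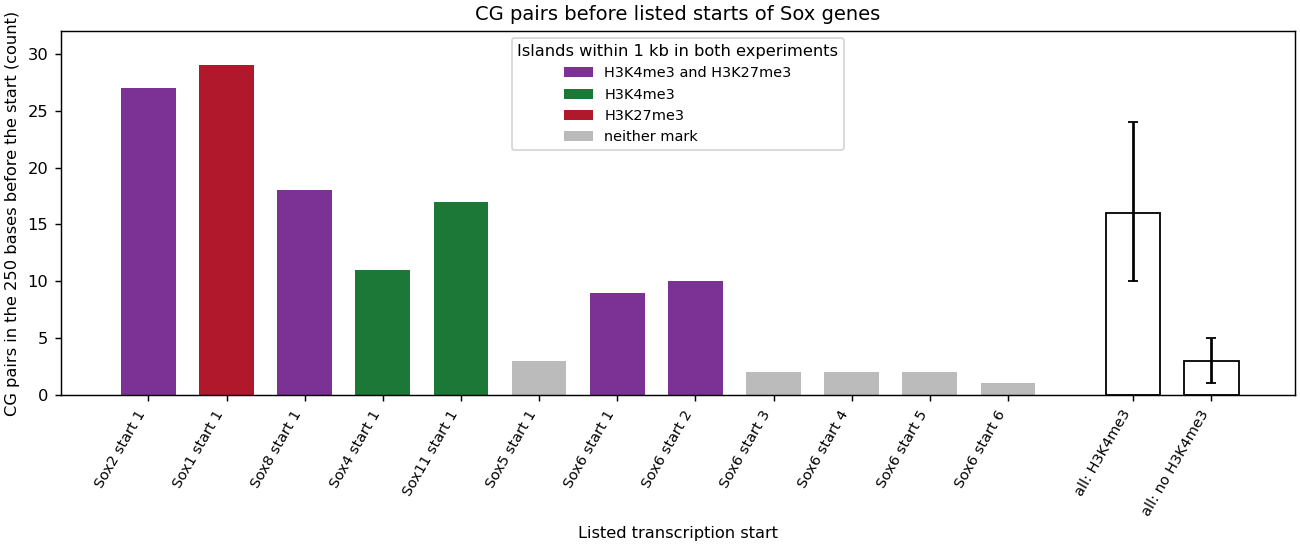
CG dinucleotides in the 250 bases before each listed start (vertical axis, count) for the 12 listed starts of 7 Sox genes and, as medians with quartiles, for all listed starts grouped by the marks they held in both experiments. Sox1 has the highest count, 29, and held H3K27me3 without H3K4me3.

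The lists held 16761 and 20169 H3K4me3 islands, 52342 and 37200 H3K4me1 islands, 7743 and 4105 H3K27me3 islands, and 9690 and 5621 H3K9me3 islands in Exp1 and Exp2. H3K27me3 was called in steps of 5000 bp and H3K9me3 in steps of 3000 bp, against 200 bp for H3K4me3 and H3K4me1, so the repressive islands are wide by construction and reach gene ends more easily. H3K4me3 lay at an end of 9 of 10 Müller glia markers, Glul and Rlbp1 among them, and Aqp4 lacked it. Rlbp1 also held H3K27me3 at the same end, in islands of 160 kb in both experiments. Markers of other cells with H3K4me3 were 5 of 6 for rods, 3 of 5 for retinal ganglion cells and 2 of 6 for the oligodendrocyte lineage. They were 1 of 5 for astrocytes, 1 of 5 for endothelium and 0 of 6 for microglia. The share of all protein-coding genes was 58.6%, and these short lists were not tested against it. H3K4me3 islands at the 5 marked rod genes were between 8.0 and 29.4 kb wide in the libraries, so chromatin of cells other than Müller glia can be in these islands, and its part in the values of the Sox genes was not tested. For the same reason, marks found at 1 place need not lie in the same cells, and the share of cells that carry a mark cannot be told apart from its strength.

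A gene was counted as marked when islands of both experiments touched the 1 kb either side of the same end of the gene. By this count H3K4me1 lay at an end of all 8 Sox genes, against 54.6% of all protein-coding genes, and H3K4me3 at 7 of them, all but Sox1, against 58.6%. In those 7 both lay at the same end, against 48.3% of all genes. H3K27me3 lay at 5, namely Sox2, Sox1, Sox9, Sox8 and Sox6, against 23.3% of all genes. H3K4me3 and H3K27me3 shared an end in 4, Sox2, Sox9, Sox8 and Sox6, against 5.74%. Sox4, Sox11 and Sox5 held H3K4me3 without H3K27me3, a state found in 51.9% of all genes, and Sox1 held H3K27me3 without H3K4me3, as did 16.6%. None of the 8 lacked both H3K4me3 and H3K27me3, against 24.8% of all genes. H3K9me3 lay at an end of 0 of the 8, against 13.4%. With 8 genes chosen by name, these counts describe the list and were not tested. When islands with p-values above the median of their own list were left out, H3K4me3 was left at 5 of the 8, without Sox5 and Sox6, against 40.7% of all genes, and H3K4me1 at 6, without Sox1 and Sox6, against 32.3%. H3K27me3 was left at 3 of the 8, Sox2, Sox1 and Sox8, against 18.8% of all genes, and both marks at 2, Sox2 and Sox8, against 0.95%.

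The islands in and up to 50 kb around the Sox genes recurred to a different extent for each mark. Of those in Exp1, 13 of 14 H3K4me3 islands and 26 of 47 H3K4me1 islands overlapped one in Exp2, or 92.9% and 55.3%, against 95.6% and 52.2% of the islands of the whole genome. For H3K27me3 it was 7 of 11 and for H3K9me3 1 of 6, or 63.6% and 16.7%, against 51.4% and 57.9% of the whole genome. In the other direction, 14 of 15, 28 of 30, 7 of 7 and 1 of 1 islands of Exp2 overlapped one in Exp1 for H3K4me3, H3K4me1, H3K27me3 and H3K9me3, against 80.6%, 86.8%, 97.0% and 99.3% of the islands of the whole genome.

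**Figure D2:**
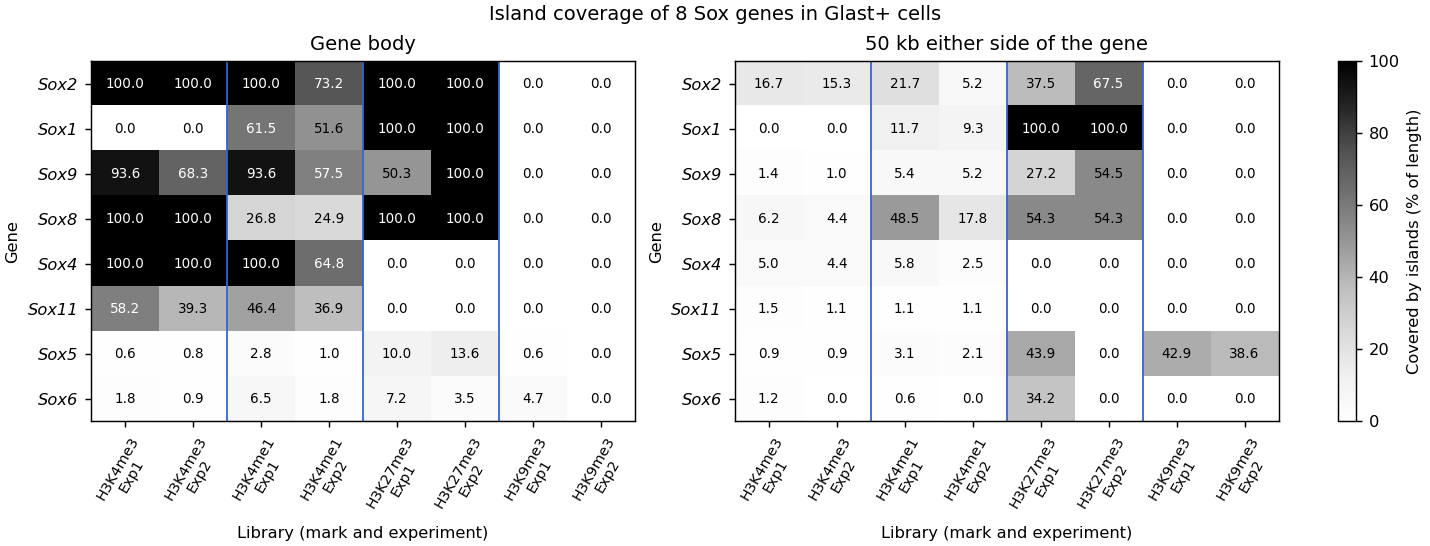
Percent of the gene body and of the 50 kb either side covered by islands of each mark (colour scale, percent, 0 to 100) for the 8 Sox genes, in Exp1 and Exp2. H3K27me3 covered all of the bodies of Sox2, Sox1 and Sox8 in both experiments and none of Sox4 and Sox11.

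Sox2, which keeps retinal progenitors multipotent and stays on in mature Müller glia, is a gene of 2.47 kb on chromosome 3, from 34649995 to 34652461. Its whole body lay inside H3K4me3 and H3K27me3 islands in both experiments, and inside H3K4me1 for 100% in Exp1 and 73.2% in Exp2. The H3K4me3 island over it was 9.4 kb wide in Exp1 and 8.6 kb in Exp2. It began 1.99 kb before the start in Exp1 and 1.19 kb in Exp2, and ran 4.94 kb past the gene's finish in both. With a mean of 9.0 ± 0.566 kb (SD, n = 2), it was wider than at 97.6% of the 12823 genes with H3K4me3, whose median was 3.2 kb. The H3K4me1 island at the start was narrower than that of H3K4me3, at 5.8 kb in Exp1 and 3.0 kb in Exp2. Around Sox2 stood 2 more H3K4me3 islands, found in both experiments. One ended 6.995 kb before the gene in Exp1 and 7.195 kb in Exp2, and was 4.8 and 4.6 kb wide. The other began 9.14 kb past the gene in Exp1 and 10.1 kb in Exp2, and was 5.0 and 4.6 kb wide. H3K4me1 lay over the one past the gene in both experiments, and over the one before the gene in Exp1. H3K27me3 covered all 3 of these H3K4me3 islands, by islands that were 40 kb wide in Exp1 and 70 kb wide in Exp2 and shared 40 kb. Of the H3K27me3 islands of the same experiment, 38.8% were narrower in Exp1 and 42.3% in Exp2. Ranked over genes, where a wide island counts for every gene it touches, 7.37% of the 5101 genes with H3K27me3 had a narrower one, and the median was 260 kb.

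Sox1, the other B1 gene, which acts in neural progenitors and in the lens, spans 4.04 kb on chromosome 8 from 12395519 to 12399555. It lay inside the widest H3K27me3 domain among the 8 genes, 760 kb in Exp1 and 745 kb in Exp2, with 745 kb shared. Of the H3K27me3 islands of the same experiment, 99.03% were narrower in Exp1 and 98.49% in Exp2, and the p-value of both is listed as 0. Ranked over the genes with H3K27me3, 77.7% had a narrower one. The domain began 545.5 kb before the gene in Exp1 and 535.5 kb in Exp2, ended 210.4 and 205.4 kb past it, and touched 4 protein-coding genes in Exp1 and 3 in Exp2. No H3K4me3 island lay within it, and the nearest to Sox1 was 271.0 kb away in Exp1 and 271.2 kb in Exp2. H3K4me1 was present all the same, in 11 islands within the domain in Exp1 and 10 in Exp2. One of them lay over the start, 3.2 kb wide in both experiments, from 0.718 kb before it in Exp1 and 1.12 kb before it in Exp2. This island had a p-value of 8.70e-27 in Exp1 and 1.16e-08 in Exp2, above the median of the list in Exp2. H3K4me1 and H3K27me3 at the same end with no H3K4me3 was the state of 1 of the 8 genes, Sox1, and of 1.83% of all genes.

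**Figure D3:**
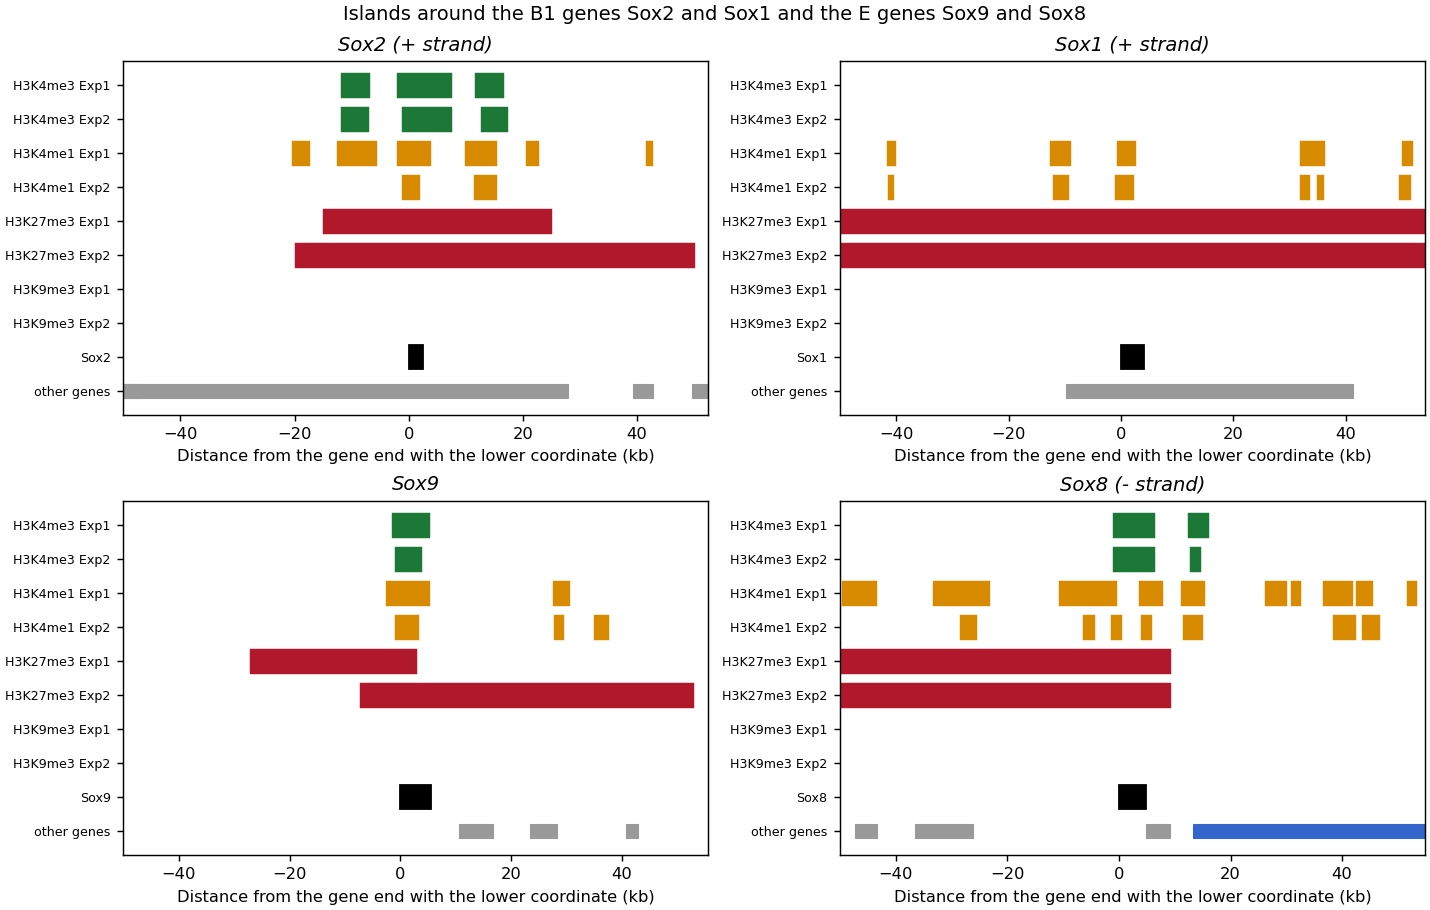
Islands of each mark around Sox2, Sox1, Sox9 and Sox8 (horizontal axis, distance in kb from the lower end of the gene), with Exp1 above Exp2 for each mark and other genes drawn below. H3K27me3 fills the whole window at Sox1, stops just past Sox8, and at Sox9 runs to opposite sides in the experiments.

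Sox9, needed for Müller glia to form and kept on in them, spans 5.55 kb on chromosome 11 from 112782210 to 112787757. The H3K4me3 island at its lower end was 6.6 kb wide in Exp1 and 4.8 kb in Exp2, a mean of 5.7 ± 1.27 kb (SD, n = 2), wider than at 89.0% of marked genes. It covered 93.6% of the gene in Exp1 and 68.3% in Exp2. H3K4me1 lay over the same end, 7.8 kb wide in Exp1 and 4.2 kb in Exp2. H3K27me3 was the mark on which the experiments differed most here. In Exp1 an island of 30 kb began 27.2 kb below the gene and ended 2.79 kb into it. In Exp2 an island of 60 kb began 7.21 kb below the gene, spanned it and ended 47.2 kb above it. They shared 10 kb, over the lower end of the gene, out of 80 kb covered in either. Their p-values were 9.26e-15 in Exp1 and 4.10e-06 in Exp2, and 76.8% of the H3K27me3 islands in Exp1 and 84.9% in Exp2 had lower ones. H3K27me3 on Sox9 is therefore among the weaker calls of these lists, unlike that on Sox2, whose p-values were 1.12e-67 and 2.93e-46 in Exp1 and Exp2.

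Sox8, a close relative of Sox9 that shares its roles in glia, spans 4.79 kb on the minus strand of chromosome 17 from 25565893 to 25570686. H3K4me3 covered it whole, in an island of 7.4 kb with the same bounds in both experiments, wider than at 95.2% of marked genes. The island began 1.51 kb before the start and ran 1.09 kb past the finish. It also covers the lower end of the lncRNA gene Cerox1, which lies 0.125 kb from the start of Sox8, so its width is not that of Sox8 alone. H3K4me1 lay at both ends of Sox8 and not across it, covering 26.8% of the body in Exp1 and 24.9% in Exp2. The H3K27me3 island was 325 kb wide in Exp1 and 330 kb in Exp2, of which 325 kb were shared. It ended at the same place in both, 4.31 kb past the upper end of Sox8, so that the gene lies at the very edge of the domain. The domain touched 11 protein-coding genes in each experiment, among them the mast cell protease gene Tpsb2 and the calcium channel gene Cacna1h. The next protein-coding gene beyond the edge, Lmf1, a lipase maturation factor, held H3K4me3 and H3K4me1 and no H3K27me3.

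Sox4, which acts with Sox11 in the survival and differentiation of young neurons, spans 4.78 kb on the minus strand of chromosome 13 from 28948919 to 28953699. Its H3K4me3 island was 6.8 kb wide in Exp1 and 6.2 kb in Exp2, covered the whole gene in both, and had p-values listed as 0 in both. Its mean of 6.5 ± 0.424 kb (SD, n = 2) was wider than at 92.7% of marked genes. H3K4me1 over the gene was 7.2 kb wide in Exp1 and 3.4 kb in Exp2. A second H3K4me3 island of 3.0 kb in both experiments began 3.90 kb before the start of Sox4 in Exp1 and 4.10 kb in Exp2, at ends of the lncRNA genes Gm46405 and Gm52067. The nearest H3K27me3 island was 111.3 kb away in both experiments.

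Sox11 spans 8.45 kb on the minus strand of chromosome 12 from 27334268 to 27342718. H3K4me3 formed a single stretch of 6.4 kb over its start side in Exp1, and 2 islands of 3.0 and 1.4 kb in Exp2, which left 800 bp between them. The widest island at an end averaged 4.7 ± 2.40 kb (SD, n = 2), so the width depends on whether that gap was bridged. H3K4me1 showed the same pair of places in both experiments, 3.2 and 1.8 kb wide in Exp1 and 3.0 and 1.2 kb in Exp2. The part of Sox11 towards its finish held no H3K4me3 or H3K4me1 island for 3.53 kb or more in either experiment. H3K27me3 was 57.3 kb away in Exp1 and 1029 kb in Exp2. Both C genes thus stood outside H3K27me3, and neither had an H3K9me3 island within 50 kb.

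**Figure D4:**
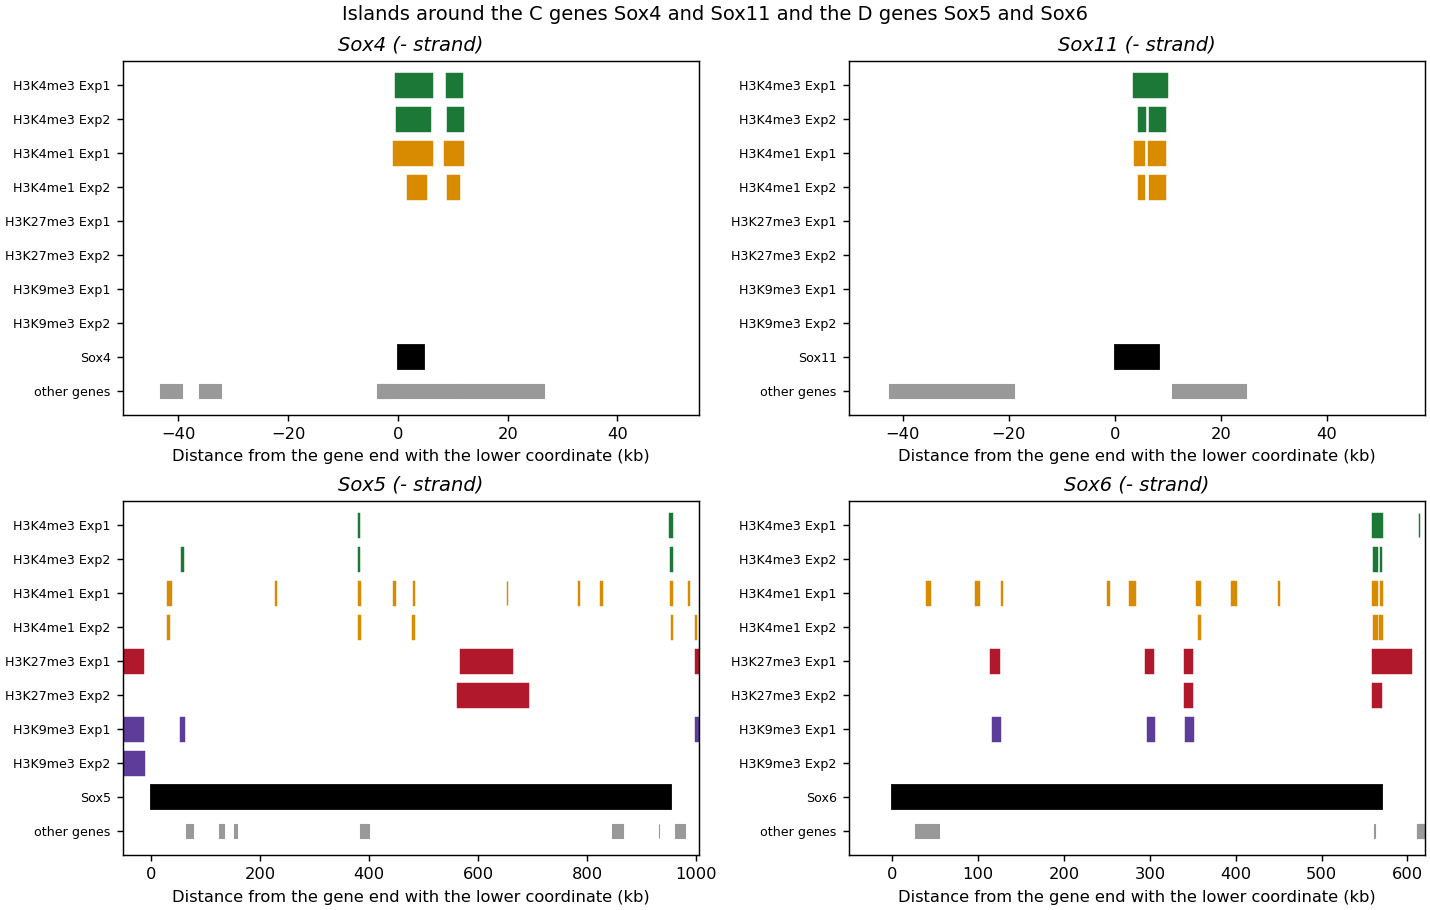
Islands of each mark around Sox4, Sox11, Sox5 and Sox6 (horizontal axis, distance in kb from the lower end of the gene), with Exp1 above Exp2 for each mark and other genes drawn below. Sox4 and Sox11 have no H3K27me3 in the window, while the long genes Sox5 and Sox6 carry separate H3K27me3 islands inside.

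Sox5 is the longest of the 8, 953.9 kb on the minus strand of chromosome 6 from 143828425 to 144782287. H3K4me3 lay at its upper end, the 5′ end of the gene, 4.4 kb wide in Exp1 and 2.6 kb in Exp2, which is close to the median of marked genes. H3K4me1 covered the same end, at 3.8 kb in Exp1 and 2.0 kb in Exp2. Inside the gene, a second H3K4me3 island began 379.4 kb from the lower end, 2.6 kb wide in Exp1 and 3.0 kb in Exp2, by an end of the lncRNA gene Gm38531. The listed start of Sox5, with 3 CG, held none of the 4 marks in both experiments. H3K27me3 did not reach either end, and an island inside the gene was 95 kb wide in Exp1 and 130 kb in Exp2, with all 95 kb shared. It lay between 561.6 and 691.6 kb from the lower end and touched no end of any other gene. Counted over the whole gene, H3K27me3 would therefore be found at 6 of the 8 genes, and both H3K4me3 and H3K27me3 at 5. The share of all genes by this rule was not counted. The H3K27me3 island in Sox5 held no H3K4me3 island in either experiment, so the marks lay at separate places there. Below Sox5 lay the only H3K9me3 island around the 8 genes that was found in both experiments, 51 kb wide in Exp1 and 42 kb in Exp2, 14.4 and 11.4 kb away from Sox5. An H3K27me3 island of 40 kb overlapped it in Exp1 alone. Exp1 alone also had an H3K9me3 island of 6 kb inside Sox5, and above the gene an H3K9me3 island of 30 kb over an H3K27me3 island of 10 kb.

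Sox6 spans 569.9 kb on the minus strand of chromosome 7 from 115470872 to 116040776, and it is the gene with most starts listed among the 8. Its H3K4me3 stood at 2 places near the 5′ end. At the second listed start and the lncRNA gene Sox6os the island was 6.0 kb wide in Exp1 and 3.8 kb in Exp2, with p-values of 1.60e-130 and 1.01e-110. At the first start it was 4.8 kb in Exp1 and 1.4 kb in Exp2, with p-values of 1.04e-31 and 6.42e-32, weaker calls than at the second start in both experiments. H3K27me3 covered the second start in both experiments, where its islands, 45 kb wide in Exp1 and 10 kb wide in Exp2, shared 10 kb. The shared part stops short of the upper end of the gene by 0.776 kb, so that with windows of 500 bp, or where 50% of a window had to be covered, Sox6 no longer counted as holding both marks at an end. The other 4 listed starts, with 1 or 2 CG, held none of the 4 marks within 1 kb in both experiments. H3K4me1 alone touched the fifth, in Exp1 only.

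Inside Sox6, H3K27me3 formed 3 islands of 10 kb in Exp1, beginning 114.1, 294.1 and 339.1 kb from the lower end, of which the last was found in Exp2 at the same place. H3K9me3 formed 3 islands of 9 kb in Exp1, beginning 116.1, 296.1 and 341.1 kb from the lower end, each 2 kb from where an H3K27me3 island began, and none was found in Exp2. Within 50 kb of the other 6 genes, which leaves out Sox5 and Sox6, there was no H3K9me3 island in either experiment. The distance from Sox2 to the nearest was 102.0 kb in Exp1 and 192.5 kb in Exp2, and that from Sox8 was 1228 kb in Exp1 and 1693 kb in Exp2.

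The widths of H3K4me3 put the genes in the order Sox2, Sox8, Sox4, Sox9, Sox11, Sox5 and Sox6. Neither value of Sox2 came down to the 7.4 kb of Sox8, and Sox8 stood above the 6.8 kb of Sox4 in Exp1. Within each experiment the order Sox4, Sox9, Sox11 and Sox5 was the same, at 6.8, 6.6, 6.4 and 4.4 kb in Exp1 and 6.2, 4.8, 3.0 and 2.6 kb in Exp2, although the values of neighbours overlap once the experiments are pooled. Sox5 and Sox6 changed places, with Sox6 wider in Exp1 and Sox5 wider in Exp2. The median over the 7 marked Sox genes was 5.7 kb, against 3.2 kb over all marked genes, and 6 of the 7 lay above the median of all. For H3K4me1 the order was different, and the median was 3.8 kb for the Sox genes and 4.8 kb for all marked genes, with 3 of the 8 above the median of all. Sox8, among these 3, owes its place to an island of 10.2 kb in Exp1 that ended 0.493 kb outside the gene. At the start of Sox8 the H3K4me1 island was 4.2 kb wide in Exp1 and 1.8 kb in Exp2. The H3K27me3 widths separated Sox1 and Sox8, both above the 260 kb median of marked genes in both experiments, from Sox2, Sox9 and Sox6, all at 70 kb or less. H3K4me3 lay at both gene ends in Sox2, Sox8 and Sox4, 3 of the 8, against 7.05% of all genes, where separate islands at the ends also count. In these 3 genes, each under 5 kb long, a single island reached both ends.

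**Figure D5:**
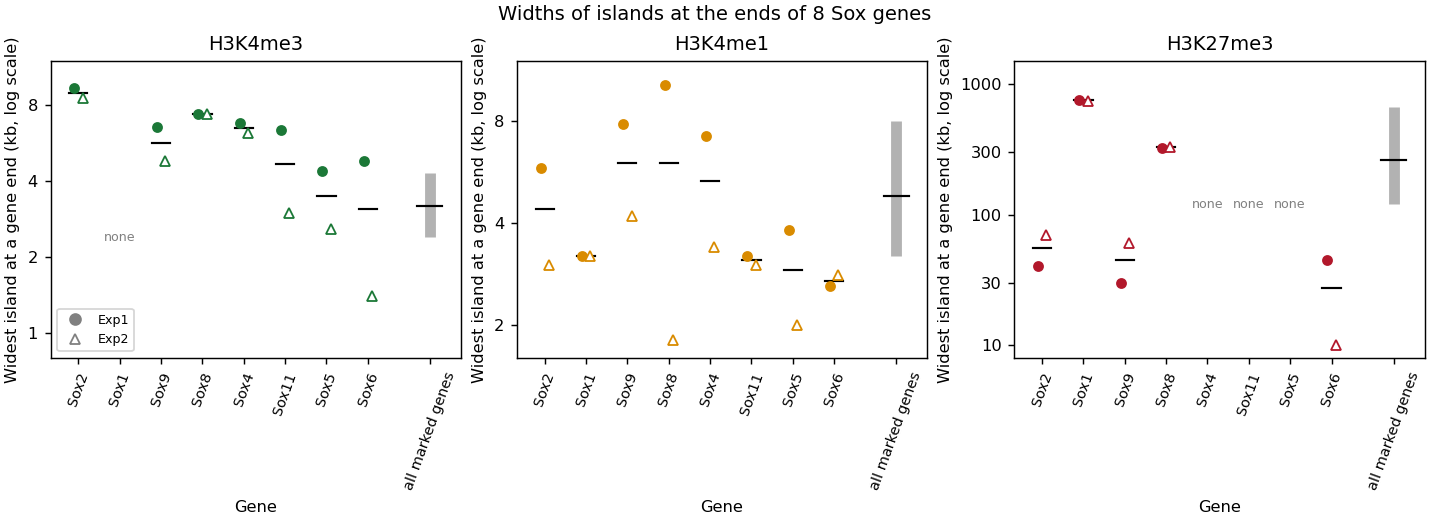
Width of the widest island within 1 kb of a marked end (vertical axes, kb, log scale) for each Sox gene in Exp1 (circles) and Exp2 (triangles), with the mean as a line and, at the right, the median and quartiles of all marked genes. Sox2 has the widest H3K4me3 island, 9.4 and 8.6 kb, and Sox1 the widest H3K27me3 island, 760 and 745 kb.

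Away from gene ends, H3K4me1 islands over 2.5 kb from any end of a protein-coding or lncRNA gene, within the gene and 50 kb around it, were found in both experiments 3 times at Sox1, 2 times at Sox8 and Sox5, once at Sox2, Sox11 and Sox6, and 0 times at Sox9 and Sox4. The median was 1 for the Sox genes and 0 for all genes, whose lengths differ. The 3 at Sox1 lay 40.3 kb before the gene and 27.8 and 45.4 kb past it at their nearest, and all 3 were inside the H3K27me3 domain, where no H3K4me3 was called. The one at Sox2 lies over the H3K4me3 island past the gene, and the one at Sox11 lies over H3K4me3 inside the gene. Both at Sox8 lay beyond the edge of the H3K27me3 domain, within Lmf1. Exp1 alone had 8 such islands at Sox5 and 8 at Sox6, against 3 and 1 in Exp2, so most of those inside these long genes were seen in 1 experiment.

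Of the other 12 Sox genes, 5 held H3K4me3, against 58.6% of all genes, 10 held H3K4me1, against 54.6%, and 5 held H3K27me3, against 23.3%. Sox3, the remaining B1 gene, and Sox7, an F gene of endothelium, held H3K4me3 and H3K27me3 at the same end, as 2 of the 12, against 5.74% of all genes. Of the 12, 3 held H3K27me3 and no H3K4me3 in both experiments, against 16.6% of all genes. Among them were Sox14, a B2 gene that acts as a repressor, and Sox17, an F gene of endoderm and endothelium. Sox14 also held H3K9me3 at an end, as 1 of the 12, against 13.4% of all genes. Sox17 had an H3K4me3 island of 3.4 kb at an end in Exp2. Sox12, the third C gene, held H3K4me3 without H3K27me3 like Sox4 and Sox11, 7.2 kb wide in Exp1 and 6.6 kb in Exp2, and Sox13, the third D gene, did so at 3.2 and 3.0 kb. Sox10, the third E gene and a factor of the oligodendrocyte lineage, was among 4 genes with neither mark in both experiments, against 24.8% of all genes. It had an H3K27me3 island of 60 kb at an end in Exp2.

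Among 6 genes for known partners of Sox proteins, the POU factor genes Pou3f1 and Pou3f2 held H3K4me3 and H3K27me3 at the same end. Sox2 did so at both of its ends. Pou3f3 held H3K27me3 without H3K4me3, and Pou3f4 held neither by the count over both experiments. Single libraries went the other way, with an H3K4me3 island of 2.6 kb at Pou3f3 in Exp2 and an H3K27me3 island of 375 kb at Pou3f4 in Exp1. Chd7, a chromatin remodeller, and Ctnnb1, which encodes β-catenin, held H3K4me3 without H3K27me3. Among 10 genes known as Sox targets in other tissues, 5 held H3K4me3, 3 held H3K27me3 and 2 held both at the same end, against 58.6%, 23.3% and 5.74% of all genes. The intermediate filament gene Nes, a target of Sox2 in neural progenitors, held both, and so did the cartilage collagen gene Col11a2. Acan, a cartilage proteoglycan gene, held H3K27me3, and H3K4me3 in Exp2 alone, in an island of 1.4 kb, while Col2a1, the cartilage collagen gene driven by Sox9, and the Notch receptor gene Notch1 held H3K4me3 without H3K27me3. Tubb3, a target of Sox4 and Sox11 in neurons, held H3K4me3 without H3K27me3 too, and H3K9me3 at an end.

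Likeness to Sox2 and Sox9 was taken as the mean absolute difference, over the 8 libraries, in the percent of the gene and 10 kb either side covered by islands. The genes most like Sox2 were Nr2f2, at 3.54 percentage points, H2bu2 at 5.24 and Zfp503 at 5.49. Nr2f2 was covered by H3K4me3 for 54.6% in Exp1 and 43.1% in Exp2 and by H3K27me3 for 95.0% in both, beside Sox2 with 59.1% and 50.8% for H3K4me3 and 100% for H3K27me3. Those most like Sox9 were Camkv at 3.998 points, Ess2 at 4.19 and Zbtb32 at 4.78.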

How the data were processed

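The 8 ChIP-seq libraries were grouped by mark, with the experiment number as replicate, from their labels; 2 input libraries of the series were not analysed here. The submitters' processing notes name mm10, BWA 0.7.5a, SICER, bedtools 2.17, SAMtools 1.3.1 and FastQC. Per the labels' protocols, each immunoprecipitation used 25000 cells, and reads were 50 bp long. For each ChIP library the authors deposited island positions with a p-value per island. It is not stated whether this is a p or a q, and the caller's settings and control are not given. With no read counts in the files, depth is unknown and no counting error could be given.

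An island's end in the files is its final base, numbered from 0, and widths include that base. Gene positions, listed starts and sequences came from RefSeq tables of GRCm38.p6. The gene table has no strand, and strands came from the listed starts. Sox9 has no listed start there. An overlap of 1 bp counted. Scripts ran in Python 3.11.15 with numpy 2.4.6 and pandas 2.3.3, were tested on simulated data, and made no significance test. Named genes are the 8 members, up to 6 genes per list in states other than its commonest, all 6 partners, the 3 genes most like Sox2 and Sox9, and Sox10, Tpsb2, Cacna1h, Lmf1 and lncRNA genes beside members, chosen after their values were seen. The members and lists were chosen with earlier results of these data known.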

Additional observations from a re-analysis of the deposited data

How the results depend on the processing

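With islands at or below the median p-value of their list, the count of Sox genes with H3K27me3 was 3 instead of 5, with both marks at the same end 2 instead of 4, with H3K4me3 5 instead of 7 and with H3K4me1 6 instead of 8. The median covered percent over the 8 genes was then 36.2 for H3K4me1 and 6.77 for H3K27me3 in the gene body, instead of 49.1 and 43.5, and 2.28 and 0 in the 50 kb either side, instead of 4.73 and 31.4. With flanks of 10 kb the median was 6.23 for H3K4me3, instead of 1.25, 8.52 for H3K4me1 and 46.5 for H3K27me3, and with flanks of 100 kb it was 6.84 for H3K4me1 and 16.5 for H3K27me3. The cause was not tested. The median H3K4me3 width, with Sox1 as 0, was 5.2 kb, and 7.7 kb when the islands in the gene and 5 kb around it were summed. The median number of distal H3K4me1 islands was 1 without Exp1 and 3.5 without Exp2. Counts of marked genes were the same in Exp1 alone and in Exp2 alone. With 50% of the window covered, H3K4me3 was at 6 genes, H3K4me1 at 7 and H3K27me3 at 4, each without Sox6. The shares of all genes were then 53%, 43.7% and 22.9%. H3K4me3 and H3K27me3 were together at 3 genes, without Sox6, with windows of 500 bp or with 50% of the window covered. With 50% covered they were together at 4.54% of all genes, and with windows of 500 bp that share was not counted. By listed starts they were together at 3 genes, Sox2, Sox8 and Sox6, where Sox9 could not be counted because it has no listed start. Of all listed starts, counted singly and not by gene, 4.28% held both marks. Counted anywhere over the whole gene, H3K4me3 and H3K27me3 were both found at 5, with Sox5, where they lay at separate places. The share of all genes by this rule was not counted.

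When marks were combined within each experiment first, as a replicate block, both marks were at 4 genes, as before; no paired test was possible because the counts come from no test. Unknown depth, wide steps for H3K27me3 and H3K9me3, and 2 experiments per mark limit these results: a missing island does not show that a mark is absent.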

Other observations

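Of the 28 lncRNA genes that overlap the Sox genes or lie within 50 kb of them, 16 held none of the 4 marks at an end in both experiments. The share over all lncRNA genes was not counted, so whether 16 is many or few is not known. Sox1ot, which overlaps Sox1, held H3K4me1 and H3K27me3 at an end in both experiments and no H3K4me3, as Sox1 did. The lncRNA gene Sox2ot, in which Sox2 lies, held H3K27me3 at an end and neither H3K4me3 nor H3K4me1. Gm46405, which overlaps Sox4, held H3K4me3 and H3K4me1 and no H3K27me3. Cerox1 beside Sox8 and Sox6os within Sox6 each held H3K4me3, H3K4me1 and H3K27me3. Those at Cerox1 and Sox6os were the islands at nearby starts of Sox8 and Sox6, and H3K27me3 at Sox1ot was the domain over Sox1. H3K4me1 at Sox1ot and the islands at Gm46405 lay apart from those over Sox1 and Sox4. In Exp1 the H3K27me3 island over Sox2 reached no end of Sox2ot. Next to Sox9, Gm11681 and 1700012H19Rik held none of the 4 marks at an end in both experiments, and Gm30562 held H3K4me1. Inside Sox5, Gm38531 held H3K4me3 and H3K4me1, and the other 5 lncRNA genes that overlap Sox5 held none of the 4 marks. These genes were chosen after their values were seen.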
